A study of Mus musculus with 9 samples.

Results

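Scavenger receptors for uptake are the 10 genes Cd68, Lrp1, Msr1, Stab1, Scarb1, Cd36, Marco, Olr1, Cd44 and Cd5l, taken by symbol from the 23238 gene symbols of the count files. Of the 10 genes, 8 had a count in at least 1 library and 7 passed the expression filter and were tested. The libraries were QuantSeq 3ʹ RNA sequencing libraries, which read the 3ʹ end of each transcript, of monocytes sorted as CD45+ CD11b+ P2ry12- Ly6C+ Ly6G- cells on day 1. Blood_Normal was blood monocytes of untreated mice, Blood_NMO was blood monocytes of mice injected in 1 striatum with patient-derived NMO-IgG, the autoantibody against aquaporin 4, together with human complement, and Brain_NMO was the monocytes recovered from the brains of such mice. All mice were WT adult females. Each group had 3 libraries and each library came from a pool of 5 mice, so p-values measure the spread between pools and not between mice. No monocytes of normal brain and no mice given control IgG were sequenced. Brain cells were released by enzymatic dissociation and a density step and blood cells by a density gradient, so tissue and preparation cannot be told apart in any comparison of Brain_NMO with blood.

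Scavenger receptors are surface or endosomal proteins that bind modified lipoproteins, dying cells, matrix fragments and other debris and carry them into the cell for breakdown in lysosomes. The family is defined by shared ligands rather than by a shared fold. In the injured central nervous system, macrophages, microglia and infiltrating monocytes use such receptors to clear myelin debris, and the cholesterol taken up is then stored or exported. The comparison of Brain_NMO with Blood_NMO asks how the transcripts of these receptors differ between monocytes in the lesioned brain and those still in blood, and that of Blood_NMO with Blood_Normal asks the same of the injection within blood.

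In the brain libraries Cd68 and Cd44 were higher than in Blood_NMO at an unadjusted p, with means 3.91 and 1.85 times as high, Lrp1 separated from it without passing the test, and Msr1 was higher in the mean with 1 overlapping library. Scarb1, Cd36 and Olr1 had differences smaller than their standard errors, Stab1 was seen in brain libraries alone, and Marco and Cd5l had no count in any of the 9 libraries. With edgeR's quasi-likelihood test and adjustment over all 10107 genes tested, 0 receptors passed an adjusted p of 0.05 in any comparison. In Brain_NMO against Blood_NMO, 0.247% of all genes passed it and 5.32% passed the unadjusted p.

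Total counts ranged from 7582571 to 10416076 per library, and a count of 3, taken as the floor of a library, corresponded to 0.271 to 0.429 CPM (read counts per 1000000 of the library size scaled by its TMM factor). Such limits and the intervals given for shares cover counting error only. Genes were taken that reached 50 CPM in the other 2 libraries of a group. Of them, 22.2% were at or under the floor in Blood_NMO replicate 3 and 8.16% in Brain_NMO replicate 2. In each other library it was at most 1.94%. Fitted changes resting on these libraries are therefore also given without them. All 7 monocyte markers had a count in every group, and their summed level was 3395 to 5776 CPM in blood and 2920 to 5973 CPM in brain, lowest in Brain_NMO replicate 2, where Ly6c2 was at 59.1 CPM. The markers did not move together. Every brain library was lower in Ptprc (463 to 1004 against at least 1143 CPM) and Ly6c2 (59.1 to 435 against at least 460 CPM). Every brain library was higher in Itgam (413 to 649 against at most 389 CPM) and Ccr2 (781 to 1290 against at most 687 CPM). Csf1r, Fcgr1 and Lyz2 overlapped. Of all 10107 genes tested, 361 lay above and 316 below in every brain library. The summed level of 8 microglia markers was 464 to 809 CPM in Brain_NMO and at most 381 CPM in blood. The marker of highest mean was Cx3cr1, which the paper lists as shared by monocytes and microglia. Cx3cr1 overlapped, at 295 to 541 CPM in brain and up to 320 CPM in blood. Of the 6 microglia markers tested, 1 had every brain library above every blood library, against 3.57% of genes. Tmem119 was at 77.9, 0 and 20.9 CPM in the brain libraries and at 0 in all of blood, while P2ry12, the marker whose absence defined the sort, was at 23.6, 69.3 and 9.89 CPM in brain and up to 43.2 CPM in blood. Endothelial markers summed to 114 to 302 CPM in brain and 5.59 to 91.8 CPM in blood. Natural killer cell, platelet and erythroid markers were lower in brain, at 21.1 to 288, 0 to 39.4 and 1.04 to 400 CPM against at least 1606, 184 and 893 CPM in blood. The sums of tissue macrophage, neutrophil, B cell, T cell, astrocyte and oligodendrocyte markers overlapped between brain and blood. The part of these other cells in the receptor values was not tested, and in bulk samples fewer cells of a type and less RNA per cell cannot be told apart.

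The 3 tested receptors whose libraries separated between Brain_NMO and Blood_NMO were Cd68, Cd44 and Lrp1, all with higher brain libraries as were 6.30% of genes, and the 250 bases before their annotated start sites are shown because these are the tested members that carry that difference. Stab1, not tested, separated by 1 count in Brain_NMO replicate 2 and is described with its values. The sequences are from RefSeq on GRCm38.p6, the patch release of mm10, in which 8 of the 10 receptors had an entry. Capitals mark GAGGAA, the core of sites bound by PU.1, the factor that drives myeloid genes, which is written TTCCTC where it reads on the other strand. Cd68 is at chr11:69666171-69666420, Cd44 at chr2:102901666-102901915 and Lrp1 at chr10:127621149-127621398. Each is on the minus strand and ends at the base before the RefSeq start site. For Cd68 that site lies upstream of the GENCODE gene, whose upstream end is at 69666153, while for Cd44 and Lrp1 the window adjoins the GENCODE gene.
Cd68: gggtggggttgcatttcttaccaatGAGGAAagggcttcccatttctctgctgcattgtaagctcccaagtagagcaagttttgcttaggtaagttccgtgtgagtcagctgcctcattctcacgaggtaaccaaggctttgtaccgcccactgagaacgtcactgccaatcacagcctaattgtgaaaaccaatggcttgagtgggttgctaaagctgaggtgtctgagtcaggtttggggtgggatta
Cd44: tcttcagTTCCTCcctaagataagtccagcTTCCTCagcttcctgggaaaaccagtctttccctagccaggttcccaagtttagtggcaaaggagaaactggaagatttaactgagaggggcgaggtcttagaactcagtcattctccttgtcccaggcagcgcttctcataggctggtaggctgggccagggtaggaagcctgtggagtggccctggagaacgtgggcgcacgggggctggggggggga
Lrp1: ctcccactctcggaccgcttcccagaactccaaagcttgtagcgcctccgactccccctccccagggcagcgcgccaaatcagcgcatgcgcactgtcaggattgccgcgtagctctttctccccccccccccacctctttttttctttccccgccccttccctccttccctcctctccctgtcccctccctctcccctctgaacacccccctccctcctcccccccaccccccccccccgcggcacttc
Searched on both strands, GAGGAA stood in this window in 6 of the 8 receptors (Cd68, Stab1, Marco, Olr1, Cd44 and Cd5l) and in 23.3% of 32851 promoters. The members with it include Marco and Cd5l, which had no count, and lack Lrp1, which separated. TGANTCA, the site of AP-1 factors, stood in Cd68 and Olr1, 2 of the 8, against 6.75% of promoters. CACGTG, the E-box of factors that drive lysosomal genes, stood in 0 of the 8 and in 6.02% of promoters. No GAGGAA match overlapped a match of the other motifs in these windows, and a match is a description of the letters and not a bound site.

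Cd68 is a heavily glycosylated protein of late endosomes and lysosomes that is used as a marker of phagocytes, and its gene is on chromosome 11 at 69664213 to 69666153 (mm10, minus strand). Its transcript was at 388, 410 and 345 CPM in the Brain_NMO libraries, at 144, 140 and 7.68 CPM in Blood_NMO and at 101, 164 and 81.6 CPM in Blood_Normal. Every brain library lay above every blood library, by a gap larger than the spread within brain, and Blood_NMO replicate 3 lay far below the other blood libraries. The group means were 381 ± 33.4 CPM (SD, n = 3) in Brain_NMO, 97.5 ± 77.8 CPM in Blood_NMO and 115 ± 42.9 CPM in Blood_Normal. Between Brain_NMO and Blood_NMO the log2 fold change of Cd68 was 1.97 (standard error 0.80, unadjusted p = 0.0283, adjusted p = 0.802, edgeR). Without Blood_NMO replicate 3 it was 1.43 with a standard error of 0.44 (unadjusted p = 0.00682), and the unadjusted p was 0.0511 without Brain_NMO replicate 1 and 0.0528 without Brain_NMO replicate 2. Against Blood_Normal the log2 fold change was 1.72 (standard error 0.80, unadjusted p = 0.0485). That p rose to 0.0983 without Blood_Normal replicate 1, 0.124 without Blood_Normal replicate 3, and 0.0816, 0.0839 and 0.0647 without Brain_NMO replicates 1, 2 and 3. Cd68 is also expressed by microglia, whose markers had a higher sum in the same brain libraries.

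**Figure D1:**
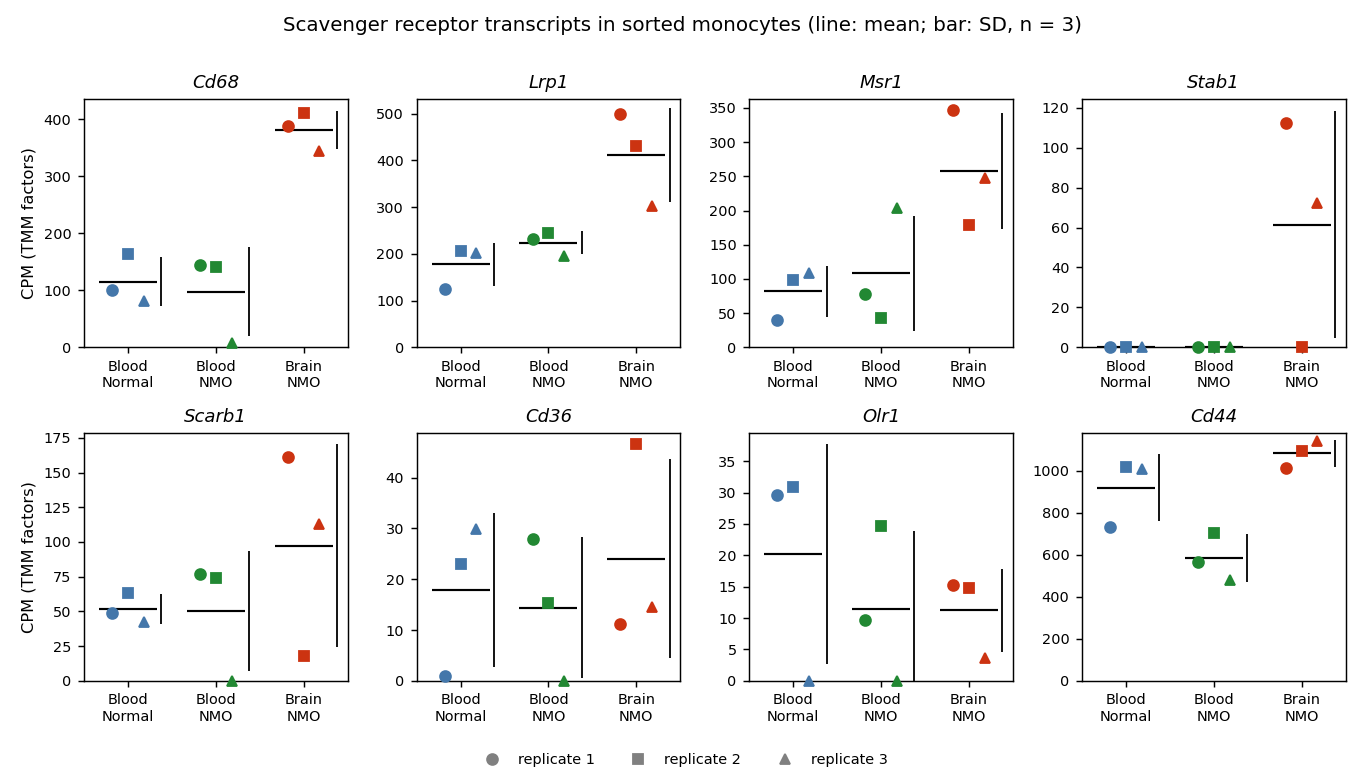
Transcript level of the 8 scavenger receptors with a count, in CPM with TMM factors on a linear axis from 0, in the 3 groups on the horizontal axis. Each point is 1 library, horizontal lines are means and vertical bars are SD cut at 0, and Cd68 and Lrp1 are the tested receptors whose 3 brain libraries all sit above the 6 blood libraries.

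Lrp1 is a large endocytic receptor for apolipoprotein E, protease complexes and myelin debris, on chromosome 10 at 127538161 to 127621148 (minus strand). Its level was 500, 431 and 303 CPM in Brain_NMO, 232, 244 and 196 CPM in Blood_NMO and 125, 205 and 202 CPM in Blood_Normal. All brain libraries were above all blood libraries, but the lowest brain library was closer to the highest blood library than to the highest brain library. The means were 411 ± 100.2 CPM (SD, n = 3), 224 ± 24.8 CPM and 178 ± 45.7 CPM in the 3 groups. The log2 fold change was 0.88 against Blood_NMO (standard error 0.45, unadjusted p = 0.0720, adjusted p = 0.802, edgeR) and 1.21 against Blood_Normal (standard error 0.45, unadjusted p = 0.0181, adjusted p = 0.708). The second p rose to 0.0944 without Blood_Normal replicate 1 and 0.0717 without Brain_NMO replicate 1.

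Msr1 is the macrophage scavenger receptor that binds acetylated and oxidised lipoproteins, on chromosome 8 at 39581685 to 39642673 (minus strand). It was at 347, 179 and 248 CPM in Brain_NMO, 78.0, 43.1 and 203 CPM in Blood_NMO and 39.5, 98.3 and 108 CPM in Blood_Normal. The brain libraries lay above all Blood_Normal libraries, and Blood_NMO replicate 3 lay above the lowest brain library, so the NMO groups overlapped. The means were 258 ± 84.4 CPM in Brain_NMO, 108 ± 84.1 CPM in Blood_NMO and 82.0 ± 37.1 CPM in Blood_Normal (SD, n = 3). The log2 fold change was 1.25 against Blood_NMO (standard error 0.71, unadjusted p = 0.0977, adjusted p = 0.853, edgeR) and 1.65 against Blood_Normal (standard error 0.71, unadjusted p = 0.0364, adjusted p = 0.708). Without Blood_NMO replicate 3 the first of these was 2.10 (standard error 0.62, unadjusted p = 0.00532, adjusted p = 0.421). The second lost its unadjusted p under 0.05 without Blood_Normal replicate 1 (0.131) or 2 (0.0636) and without Brain_NMO replicate 1 (0.127) or 3 (0.0625). Blood_NMO replicate 3 was thus the lowest blood library in Cd68 and the highest in Msr1. Marco, the other class A receptor of macrophages in this group, had no count in any library, which allows at most 0.271 to 0.429 CPM per library.

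Cd44 is the receptor for hyaluronan, which it binds and internalises, and also serves in leukocyte adhesion, on chromosome 2 at 102811141 to 102901665 (minus strand). Its level was 1015, 1094 and 1143 CPM in Brain_NMO, 568, 705 and 482 CPM in Blood_NMO and 735, 1018 and 1010 CPM in Blood_Normal. Every Blood_NMO library lay below every library of the other 2 groups, while Brain_NMO and Blood_Normal overlapped. The means were 1084 ± 64.5 CPM, 585 ± 113 CPM and 921 ± 161 CPM (SD, n = 3). Against Blood_NMO the log2 fold change in brain was 0.89 (standard error 0.30, unadjusted p = 0.0112, adjusted p = 0.716, edgeR), with an unadjusted p under 0.05 in each of the 20 alternatives tried. Against Blood_Normal it was 0.24 (standard error 0.30, unadjusted p = 0.449), and the 2 comparisons share the brain libraries. Between Blood_NMO and Blood_Normal the log2 fold change of Cd44 was -0.65 (standard error 0.30, unadjusted p = 0.0490, adjusted p = 1, edgeR), beside a median of -0.16 over all genes tested. With library sizes alone the highest Blood_NMO library, at 713 CPM, lay above the lowest Blood_Normal library, at 589 CPM, and the log2 fold change was -0.49 (unadjusted p = 0.163). The unadjusted p was 0.149 without Blood_Normal replicate 2, 0.119 without Blood_Normal replicate 3, 0.108 without Blood_NMO replicate 1, 0.0917 without Blood_NMO replicate 3 and 0.0643 without Brain_NMO replicate 3.

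The fitted differences of Scarb1, Cd36 and Olr1 were smaller than their standard errors in every comparison. Scarb1, the receptor for high-density lipoprotein, was at 161, 17.9 and 113 CPM in Brain_NMO, 76.7, 73.8 and 0 CPM in Blood_NMO and 48.5, 63.6 and 42.5 CPM in Blood_Normal. Brain_NMO replicate 2 lay below 5 of the 6 blood libraries and Blood_NMO replicate 3 had no count, and the log2 fold change of 0.96 between the NMO groups had a standard error of 1.53. Without these 2 libraries, those with most genes at the floor, both brain libraries of Scarb1 lay above the 5 blood libraries left. The log2 fold change of Scarb1 was then 0.88 against Blood_NMO (standard error 0.53, unadjusted p = 0.130), 1.43 against Blood_Normal (standard error 0.48, unadjusted p = 0.0134, adjusted p = 0.324, edgeR) and 1.15 against both (unadjusted p = 0.0221, adjusted p = 0.369). Cd36, a receptor for oxidised lipoproteins and fatty acids, was at 11.1, 46.5 and 14.4 CPM in Brain_NMO, 27.9, 15.4 and 0 CPM in Blood_NMO and 0.858, 23.0 and 29.9 CPM in Blood_Normal. Its highest brain library was Brain_NMO replicate 2, and without that library the fitted change between the NMO groups went from 0.74 (standard error 2.30) to -0.16 on the log2 scale. Olr1, a lectin-like receptor for oxidised lipoproteins, was at 15.3, 14.8 and 3.56 CPM in Brain_NMO, 9.61, 24.7 and 0 CPM in Blood_NMO and 29.6, 30.9 and 0 CPM in Blood_Normal. The Olr1 groups overlapped throughout, with a log2 fold change of -0.02 between the NMO groups (standard error 2.67), which became 1.24 without Blood_NMO replicate 2 and 0.41 without Brain_NMO replicate 3. Cd5l, a secreted scavenger protein of tissue macrophages, had no count in any library.

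Stab1, a receptor that clears modified lipoproteins and matrix proteins and is made by endothelium and some tissue macrophages, lies on chromosome 14 at 31139013 to 31168641 (minus strand). It had 998, 1 and 730 counts in the Brain_NMO libraries, or 112, 0.0946 and 72.2 CPM, and 0 counts in all 6 blood libraries. Brain_NMO replicates 1 and 3 were thus far above the floor and replicate 2 was under it, so the gene did not pass the expression filter and was not tested. By its mean of 61.5 CPM against the floor averaged over a group, Stab1 was at least 182-fold higher in Brain_NMO than in Blood_NMO and at least 176-fold higher than in Blood_Normal, with 1 of the 3 brain libraries at or under the floor. Without Brain_NMO replicate 1 these bounds fell to 107-fold and 103-fold. When genes of low count were kept in the fit, Stab1 had an adjusted p of 0.132 against Blood_NMO and of 0.00140 against both blood groups together (edgeR). Stab1 also passed the expression filter when a library other than Brain_NMO replicate 1 or 3 was left out, with an adjusted p of 0.0680 to 0.270 against both blood groups. Without the 2 libraries with most genes at the floor it was 0.0207. With 0 counts in blood, Stab1 entered all these fits only through its brain libraries, so its direction was fixed and these values are no support. The last 112 bases of Stab1, at 31139013 to 31139124, overlap the end of Nt5dc2, a neighbouring gene on the opposite strand, and the sources used here do not state whether counting used strand. Nt5dc2 had 1317, 1 and 977 counts in the same 3 libraries, 1.32, 1.00 and 1.34 times those of Stab1, and 0 counts in blood except for 63 in Blood_NMO replicate 2. Reads of the 2 genes cannot be told apart here, so the values of Stab1 are uncertain. The same 2 brain libraries held Tmem119 and a count for all 6 endothelial markers, of which Brain_NMO replicate 2 held 2, and the part of those cells in the Stab1 value was not tested.

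**Figure D2:**
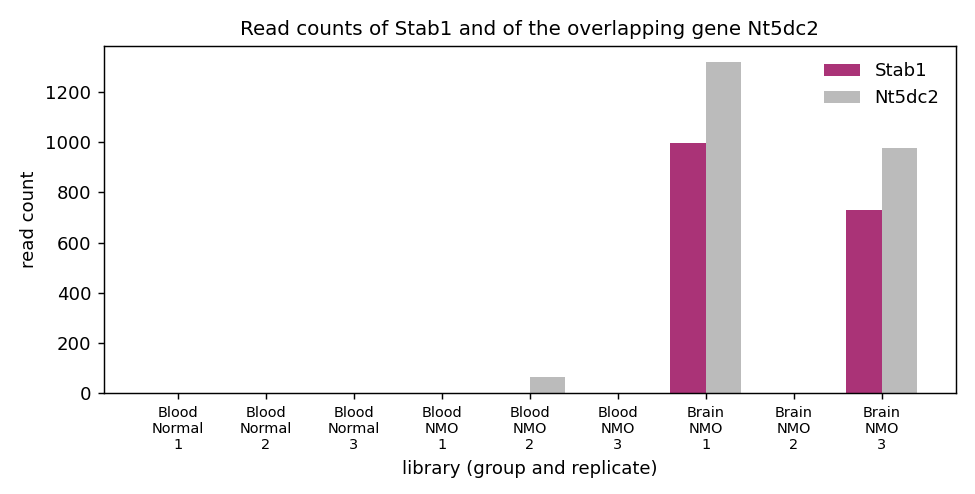
Read counts of Stab1 and of Nt5dc2, whose 3ʹ ends overlap on opposite strands, in each of the 9 libraries on a linear axis from 0. Both genes are high in Brain_NMO replicates 1 and 3 and at 1 count in Brain_NMO replicate 2, while in blood there are 63 counts of Nt5dc2 in 1 library and none of Stab1.

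Counted over the group, 6 of the 7 receptors tested had a fitted log2 fold change above 0 between Brain_NMO and Blood_NMO, where 51.4% of all genes tested did, and their median was 0.89 against 0.05 for all genes. At the threshold of the study, an unadjusted p under 0.05 with a fold change of 1.2, 2 of the 7 (Cd68 and Cd44) were higher and 0 lower, where 1.48% of genes were higher and 5.32% passed in either direction. After adjustment 0 of the 7 passed, with 0.247% of genes called in all. DESeq2 also called 0 receptors, against 3.32% of genes, and limma-voom with sample quality weights called 1, Cd44 (adjusted p = 0.0408), against 0.505% of genes. Every brain library lay above every Blood_NMO library in 3 of the 7 (Cd68, Lrp1 and Cd44), against 6.30% of genes. Without Blood_NMO replicate 3 the number at the unadjusted threshold was 4 of 8, against 6.25% of genes, with Stab1 then tested and among the 4. Stab1 had 0 counts in blood and entered that fit only through its brain libraries, so its pass is no support. Without Brain_NMO replicate 1 the number was 1 of 7, against 5.50% of genes. Cd68 and Lrp1 are among the receptors that the study singled out on these same libraries, so their direction is not independent evidence. The study reported Lrp1, Mrc1, Clec7a, Fcrls and Cd14 as significantly higher too, whereas Lrp1 did not pass here. The other 4 are on the list of other receptors below, of which 1 of 10 tested passed against Blood_NMO. Mrc1, named for that report, was at 25.2 to 61.8 CPM in Brain_NMO and 0 to 12.1 CPM in Blood_NMO. Why the calls differ was not tested.

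**Figure D3:**
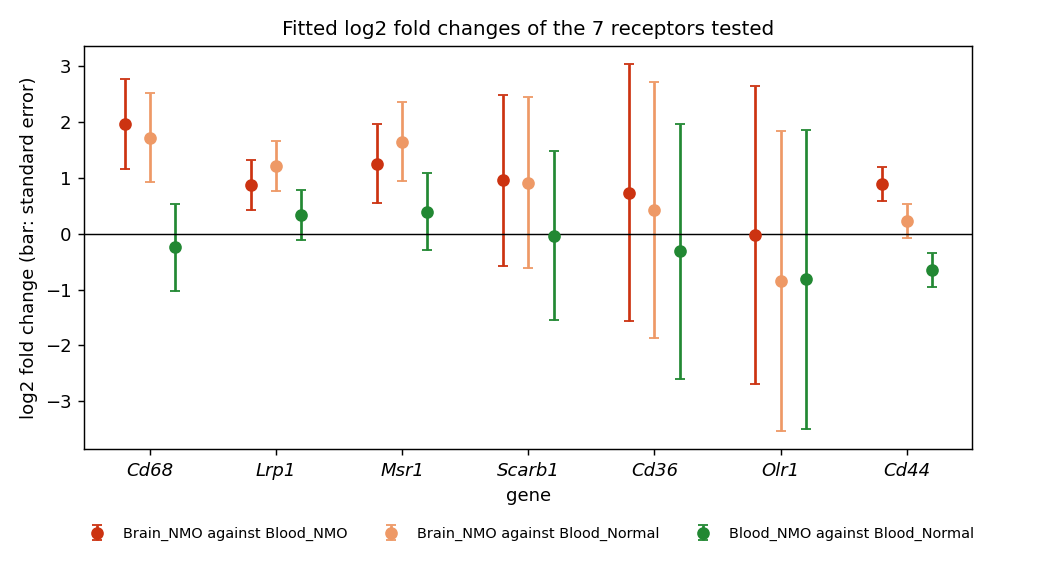
Fitted log2 fold changes of the 7 scavenger receptors tested (edgeR, TMM factors) in 3 comparisons, with standard errors as bars and a line at 0. Cd68, Lrp1, Msr1 and Cd44 lie above 0 in Brain_NMO against Blood_NMO, and the bars of Scarb1, Cd36 and Olr1 cross 0 in all 3 comparisons, which share libraries.

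Against Blood_Normal, 3 of the 7 receptors (Cd68, Lrp1 and Msr1) were higher in Brain_NMO at the unadjusted threshold, where 1.75% of genes were higher and 5.82% passed in either direction, and the same 3 had every brain library above every Blood_Normal library, against 6.07% of genes. After adjustment 0 of the 7 passed, where 0.247% of genes did, and DESeq2 and limma-voom likewise called 0 receptors, against 3.62% and 0.327% of genes. Between the blood groups, 1 of the 7, Cd44, was lower in Blood_NMO at the unadjusted threshold and in every library, against 0.247% of genes lower at that threshold, 0.712% in either direction and 4.45% with every Blood_NMO library below. None of the 10107 genes was called after adjustment in that comparison, where 72 passed the unadjusted threshold, and DESeq2 called 69 genes (0.683%) but 0 receptors. Cd68, Msr1, Scarb1 and Cd36 did not keep the sign of their blood difference when Blood_NMO replicate 3 was left out: Cd68 went from -0.24 to 0.31, Msr1 from 0.40 to -0.44, Scarb1 from -0.04 to 0.55 and Cd36 from -0.31 to 0.27 on the log2 scale.

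Set against both blood groups together, 4 of the 7 receptors were higher in Brain_NMO at the unadjusted threshold, where 2.62% of genes were higher and 6.89% passed in either direction. Cd68 had a log2 fold change of 1.85 (standard error 0.65, unadjusted p = 0.0127, adjusted p = 0.535, edgeR) and Lrp1 one of 1.04 (standard error 0.37, unadjusted p = 0.0147, adjusted p = 0.565). Msr1 was at 1.45 (standard error 0.58, unadjusted p = 0.0255) and Cd44 at 0.56 (standard error 0.26, unadjusted p = 0.0459), both with an adjusted p of 0.618. After adjustment 0 of the 7 passed, where 0.435% of genes did. DESeq2 called 0 receptors as well, against 4.90% of genes, and limma-voom called Cd68 (adjusted p = 0.0219) and Msr1 (adjusted p = 0.0195), against 1.21% of genes. Cd68 and Lrp1 lay above all 6 blood libraries in every brain library, against 3.57% of genes. The unadjusted p of Cd68 stayed under 0.05 with each library left out, that of Lrp1 rose to 0.0799 without Brain_NMO replicate 1, and those of Msr1 and Cd44 rose above 0.05 with several libraries left out, at most to 0.126 and 0.112.

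**Figure D4:**
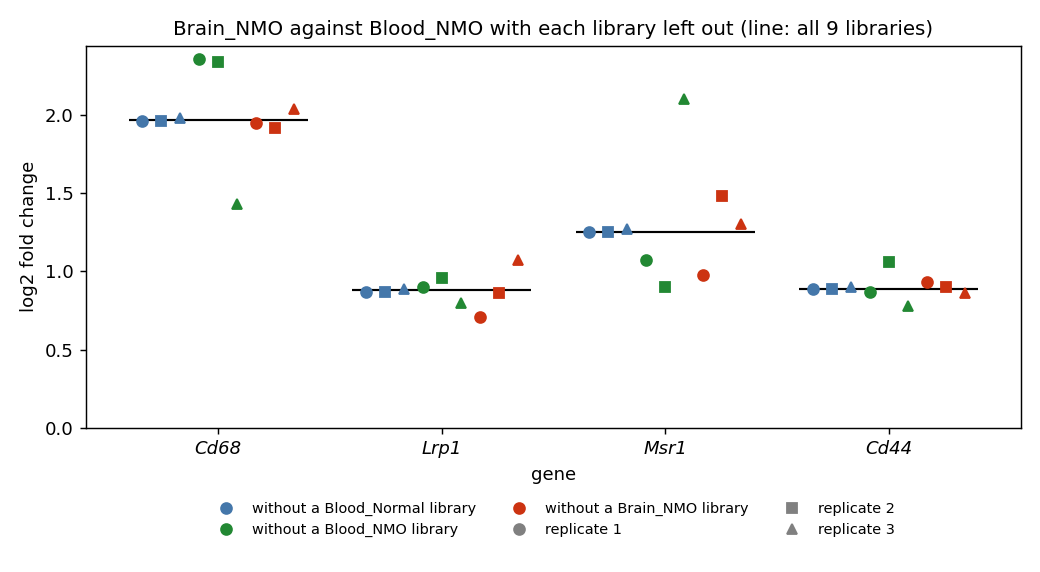
Log2 fold change of 4 receptors between Brain_NMO and Blood_NMO when each of the 9 libraries is left out in turn, with colour for the group and shape for the replicate of the library left out and a line for all 9 libraries. Leaving out Blood_NMO replicate 3 takes Cd68 from 1.97 to 1.43 and Msr1 from 1.25 to 2.10, while Lrp1 stays between 0.71 and 1.07 and Cd44 between 0.78 and 1.06.

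The share of each receptor in the summed counts of the 10 receptors of a library does not depend on the scaling between libraries. Shares of 3ʹ counts are compared here between groups and not between genes, and since they sum to 100% a rise of 1 receptor lowers the others. Cd44 took 68.1%, 63.5% and 68.5% of the receptor counts in Blood_Normal, 50%, 56.6% and 54.2% in Blood_NMO and 39.8%, 49.9% and 51.0% in Brain_NMO. All Blood_Normal libraries lay above all libraries of the NMO groups, by more than the 95% Wilson half-widths, which were at most 1.08 percentage points. Cd68 took 15.2%, 18.7% and 15.4% in Brain_NMO, above the 12.7%, 11.3% and 0.864% of Blood_NMO and the 9.33%, 10.2% and 5.53% of Blood_Normal. Lrp1 took 20.4%, 19.6% and 22.1% in Blood_NMO and 11.6%, 12.8% and 13.7% in Blood_Normal, without overlap between the blood groups. Its share in Brain_NMO, 19.6%, 19.7% and 13.5%, reached down to the range of Blood_Normal. Msr1 took 22.8% in Blood_NMO replicate 3 and 3.45% to 13.6% in the other 8 libraries. The receptors summed to 2193 to 2549 CPM in Brain_NMO, 889 to 1247 CPM in Blood_NMO and 1079 to 1603 CPM in Blood_Normal, so that all brain libraries lay above all blood libraries. No test was made on shares or sums, since the members were chosen with results known.

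**Figure D5:**
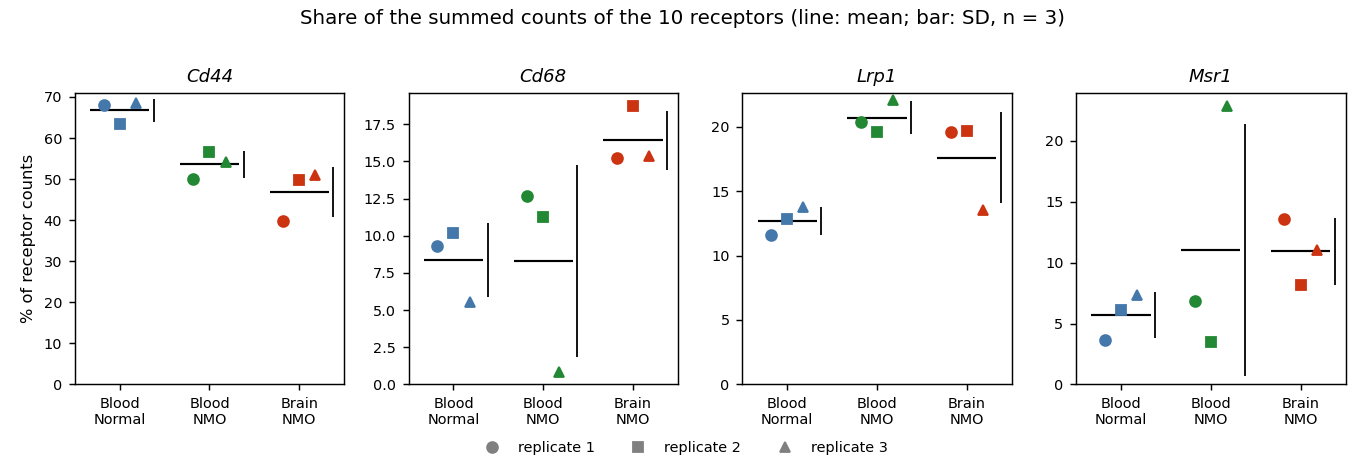
Percentage of the summed read counts of the 10 receptors taken by Cd44, Cd68, Lrp1 and Msr1 in each library, on linear axes from 0, with group means as lines and SD as bars. Cd44 falls from 63.5% to 68.5% in Blood_Normal to 39.8% to 51.0% in Brain_NMO, and Cd68 is highest in Brain_NMO.

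The genes whose levels most resembled those of 3 receptors were found by Pearson correlation of log2(CPM + 1) over the 9 libraries, as a description, since all points share the contrast of brain and blood and the same scaling. For Cd68 they were Irf2bp2 (r = 0.990), Sf3b3 (r = 0.987) and Slc16a3 (r = 0.986). Cd68 was at 7.68 CPM in Blood_NMO replicate 3, the library with most genes at the floor, far below all others. These r values can therefore rest on that library, and they were not computed without it. For Lrp1 they were Gm12070 (r = 0.957), Tgfbi (r = 0.904) and Csf2rb (r = 0.903). For Cd44 they were Snhg3 (r = 0.946), Vim (r = 0.923) and Rnpc3 (r = 0.910).

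Genes that work with these receptors were counted in 5 lists for Brain_NMO against both blood groups together, with a gene taken as called below an adjusted p of 0.05. Over all genes 0.139% were called higher. At the unadjusted threshold 2.62% were higher, 431 of 10107 genes were lower, and 6.89% passed in either direction. Every brain library lay above every blood library in 3.57% of genes and below in 316 genes. Among 16 other scavenger receptors, 10 were tested, 7 had a log2 fold change above 0, as had 50.2% of all genes tested, and 0 were called, with 1 at the unadjusted threshold and a median log2 fold change of 1.47 against 0.01 over all genes. That gene was Fcrls, chosen here after its values were seen, which was at 52.4, 77.1 and 50.3 CPM in Brain_NMO and 0 in all of blood, at least 174-fold higher (adjusted p = 0.0781, edgeR). At 0 in blood, Fcrls passed the expression filter only through its brain libraries, so its direction was fixed and its p is no support. Fcrls is known as a microglia gene, and the sum of the microglia markers was higher in the same libraries. The 3 of highest level on the list were Cd14, the lipopolysaccharide co-receptor, at 676 to 710 CPM in brain and 0 to 397 CPM in blood, Clec7a, the β-glucan receptor, at 275 to 422 CPM and 91.9 to 384 CPM, and Cxcl16, a membrane chemokine that binds oxidised lipoprotein, at 73.8 to 179 CPM and 0 to 95.8 CPM. The groups separated in Cd14 and overlapped in Clec7a and Cxcl16. On the log2 scale Cd14 was higher in brain by 1.77 (standard error 1.07, adjusted p = 0.791, edgeR), and by 1.49 (standard error 0.35, adjusted p = 0.0861) without Blood_NMO replicate 3, the blood library where it was at 0. When genes of low count were kept in the fit, Cd14 was called (log2 fold change 1.75, adjusted p = 0.00686).

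Of 16 ligands of the receptors, 11 were tested, 10 had a log2 fold change above 0 with a median of 0.94, 1 was called higher and 0 lower, and 6 were higher at the unadjusted threshold (Spp1, Thbs1, Sparc, Srgn, Fn1 and Apoe). The called gene was Spp1, which encodes osteopontin, a ligand of Cd44, and which, like Sparc, was named after its values were seen. It was at 177, 147 and 284 CPM in Brain_NMO, at 10.9 CPM in Blood_NMO replicate 1 and at 0 in the other 5 blood libraries, a mean 112 times as high, or at least 616-fold higher without Blood_NMO replicate 1 (adjusted p = 0.0469, edgeR). Spp1 passed the expression filter through its brain libraries, so in effect it could only be called higher, and the call is a description. The adjusted p of Spp1 rose to 0.126 without Blood_Normal replicate 3, to 0.0964, 0.0907 and 0.148 without Brain_NMO replicates 1, 2 and 3, and to 0.0545 without Rn45s. Thbs1, the matrix protein thrombospondin that binds Cd36, was at 1276, 874 and 1059 CPM in Brain_NMO and at 146 to 528 CPM in blood, without overlap (log2 fold change 1.69, standard error 0.36, adjusted p = 0.0618). Apoe, the apolipoprotein bound by Lrp1, was at 1130.3, 1174 and 709.5 CPM in Brain_NMO and at 106 to 704 CPM in blood, so the groups separated by a small gap (log2 fold change 1.15, standard error 0.42, adjusted p = 0.582). Srgn, the proteoglycan serglycin, was at 1740.4 to 2572 CPM in brain and 841 to 1414 CPM in blood (log2 fold change 0.80, standard error 0.24, adjusted p = 0.312). Fn1, fibronectin, overlapped between brain and blood (log2 fold change 0.94, standard error 0.33, adjusted p = 0.541).

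Of 15 adaptors and kinases, 12 were tested and 5 had a log2 fold change above 0, with a median of -0.23, 1 called higher and 0 called lower. The called gene was Dab2, an endocytic adaptor that binds the tails of lipoprotein receptors, also named after its values were seen. It was at 357, 279 and 368 CPM in Brain_NMO, at 11.9 CPM in Blood_Normal replicate 1, at 1.08 CPM in Blood_NMO replicate 2 and at 0 in the other 4 blood libraries, a mean 155 times as high, or 1546 times without Blood_Normal replicate 1 (adjusted p = 0.0466, edgeR). Dab2 likewise passed the expression filter through its brain libraries, so its call is a description too. The call of Dab2 was lost in 7 of 18 alternatives, with an adjusted p of at most 0.106. Among these, the adjusted p was 0.0864 without Blood_Normal replicate 3, 0.0683 without Blood_NMO replicate 1 and 0.0545 without Rn45s. It was 0.104, 0.0951 and 0.106 without Brain_NMO replicates 1, 2 and 3. At the unadjusted threshold the kinase gene Fyn and the guanine exchange factor gene Dock2 were lower, Fyn in every brain library, with log2 fold changes of -1.33 and -0.96. Msn and Ezr, which link membrane receptors such as Cd44 to actin, and the kinase Lyn overlapped between brain and blood.

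All 15 genes of the endocytic machinery were tested, 12 had a log2 fold change above 0 with a median of 0.65, 1 was called higher and 0 lower. Ctsd, the lysosomal protease cathepsin D, was the called gene, at 1329, 1101 and 1050.3 CPM in Brain_NMO and 180 to 377 CPM in blood (log2 fold change 1.89, standard error 0.30, adjusted p = 0.0139, edgeR). The call of Ctsd held with each library left out, narrowly without Brain_NMO replicate 1 (adjusted p = 0.0497) or 3 (adjusted p = 0.04996). Ctsd, the clathrin assembly gene Picalm, the early endosome gene Eea1 and the tetraspanin gene Cd63 were higher at the unadjusted threshold and had every brain library above every blood library. Lamp1, a lysosomal membrane protein, overlapped, with a log2 fold change of 0.08. Of 15 genes of sterol handling, 14 were tested, 11 had a log2 fold change above 0 with a median of 1.63 and 0 were called. The 4 higher at the unadjusted threshold were Nr1h3, Npc1, Plin2 and Fabp5, of which Nr1h3 and Fabp5 had no count in Brain_NMO replicate 2. Nr1h3 was at 0 in Blood_NMO and over the floor in 1 Blood_Normal library, at 5.89 CPM. As for Spp1, in effect it could only be higher, and its pass is a description. Npc2, a lysosomal cholesterol carrier, and Plin2 overlapped between brain and blood. Fyn, Eea1, Cd63, Nr1h3, Npc1 and Fabp5 are also named after their values were seen. Plin2, which coats lipid droplets, was at 151, 285 and 443 CPM in Brain_NMO, at 187 CPM in Blood_NMO replicate 3 and at 48.3 to 121 CPM in the other blood libraries. Against Blood_NMO alone, 0 genes of the 5 lists were called. At the unadjusted threshold 1 of 10 other receptors, 5 of 11 ligands, 1 of 12 adaptors and kinases, 2 of 15 endocytic genes and 3 of 14 sterol genes were higher, beside 1.48% of all genes, and 1 adaptor or kinase was lower.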

How the data were processed

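The 9 libraries were QuantSeq 3ʹ libraries of sorted mouse monocytes. According to the study's methods and the submitters' processing notes, reads were aligned to mm10 with Bowtie2 and counted per gene symbol with bedtools, with unique and multiple alignments counted. The versions, the annotation and the use of strand are not given in the sources used here. The authors deposited raw read counts per gene, before their own TMM and CPM normalization. Of 23282 entries, 35 symbols were repeated. For these the entry of highest total count was used, giving 23238 symbols, of which 8796 had no count. Rn45s, a ribosomal RNA entry, held 28.4% to 43.6% of counts.

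Counts were analysed in R 4.3.3 with edgeR 4.0.16 (TMM factors 0.801 to 1.46, filterByExpr, glmQLFit and glmQLFTest, 1 fit over the 9 libraries, Benjamini-Hochberg adjustment over 10107 genes, common dispersion 2.87). The standard errors given with edgeR are the absolute log2 fold change divided by the square root of the quasi-likelihood F. A difference smaller than its standard error is thus an F under 1. CPM values carry the TMM factors, and a pseudocount of 1 was used for correlations. The alternatives were DESeq2 1.42.0, limma 3.58.1 (voom with sample quality weights), other scalings and filters, separate fits, a replicate block and each library left out. Fits without Rn45s and without the 2 libraries with most genes at the floor were chosen after seeing the data. The members and gene lists were chosen with earlier results of these data known. Every member is named, from each list genes among the 4 of highest mean CPM, with exceptions marked, and for the 3 members of highest mean CPM the 3 most correlated genes. Sequences came from RefSeq (GRCm38.p6) and gene positions from GENCODE on mm10, and the scripts were tested on simulated data.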

Additional observations from a re-analysis of the deposited data

How the results depend on the processing

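Of 541 values of the 7 receptors in 28 member results under 20 alternatives, 506 kept their direction and their side of an adjusted p of 0.05, 3 passed it (limma-voom, given above) and 32 changed sign. Cd68, Lrp1, Msr1, Scarb1 and Cd44 kept their sign in all 3 comparisons of Brain_NMO, where log2 fold changes against Blood_NMO ranged from 1.38 to 2.42, 0.71 to 1.07, 0.89 to 2.31, 0.38 to 1.46 and 0.77 to 1.06. The changes of sign were of Cd36 and Olr1, and of Cd68, Msr1, Scarb1 and Cd36 between the blood groups; the cause was not tested. With a library left out, Cd36 ranged from -0.16 to 1.64 against Blood_NMO, -0.47 to 1.02 against Blood_Normal and -0.31 to 1.03 against both, negative without Brain_NMO replicate 2 each time and at -0.14 without Blood_Normal replicate 1. Olr1 ranged from -0.60 to 1.24 against Blood_NMO and -0.72 to 0.20 against both, positive without Blood_NMO replicate 2 (and 0.41 and 0.00 without Brain_NMO replicate 3). Between the blood groups Cd68 ranged from -0.64 to 0.31, Msr1 from -0.44 to 0.77, Scarb1 from -0.48 to 0.55 and Cd36 from -1.22 to 0.27, each turning without Blood_NMO replicate 3, where Cd68 was also 0.10 and Scarb1 0.14 without Blood_Normal replicate 2 and Cd36 0.27 without Blood_Normal replicate 3. Against both blood groups Msn ranged from -0.42 to 0.16 and Lamp1 from -0.26 to 0.40. Without the 2 libraries with most genes at the floor, Cd36 was -0.74, -0.47 and -0.61 in the 3 brain comparisons, Msn was 0.10, and the blood differences were 0.31 (Cd68), -0.44 (Msr1), 0.55 (Scarb1) and 0.27 (Cd36). Limma-voom gave -0.40 for Cd36 against Blood_NMO and, between the blood groups, 0.15, -0.22, 0.34 and 1.83 for Cd68, Msr1, Scarb1 and Cd36. RLE factors and DESeq2 gave 0.10 for Olr1 against Blood_NMO.

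Receptors called after adjustment were 0 with each library left out. They were 1 (Brain_NMO against Blood_NMO) and 2 (against both) with limma-voom, and 1 against both with no filter, where Stab1 is tested, and 1 against Blood_Normal and against both without the 2 libraries, again Stab1. Stab1 enters such fits only through its brain libraries. Where tested, it is also among the receptors at the unadjusted threshold in the brain comparisons. At the unadjusted threshold the receptors were 1 to 4 against Blood_NMO with a library left out (lowest without Brain_NMO replicate 1), 0 to 4 against Blood_Normal, 1 to 5 against both and 0 to 1 between the blood groups. They were 4 with limma-voom and 4 without the 2 libraries against Blood_NMO, 5 without the 2 libraries against Blood_Normal, 2 with library sizes alone against both, and between the blood groups 0 with RLE factors, library sizes alone, no filter, only the groups compared, DESeq2 and without the 2 libraries.

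Genes called after adjustment against Blood_NMO, between the blood groups, against Blood_Normal and against both were 25, 0, 25 and 44, and with DESeq2 336, 69, 366 and 495. With no filter they were 110, 2, 115 and 181. Against Blood_NMO they were 16 (each library at 10 counts or more), 12 (only the groups compared), 51 (limma-voom) and 61 (without the 2 libraries). Against Blood_Normal they were 58 (only the groups compared) and 107 (without the 2 libraries), and against both 122 (limma-voom) and 128 (without the 2 libraries). With a library left out they were 15 to 36, 0, 11 to 62 and 21 to 90, highest without Blood_NMO replicate 3. Against both blood groups 31.8% of calls were higher, 47.4% with RLE factors and 41.5% with library sizes alone, and against Blood_Normal 12% and 22.2% with library sizes alone.

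With the replicate number as a replicate block, 22, 0, 22 and 34 genes and 0 receptors were called, and Olr1 went to 3.11 against Blood_NMO, 2.18 against Blood_Normal and 2.64 against both. Same-numbered libraries correlated in their deviations from the group means at -0.01 to 0.12. Between the blood groups these were 0.116, 0.015 and 0.069, against -0.096 to 0.005 for libraries of different number. Replicate 1 had the highest share of Rn45s (43.6%, 42.2% and 39.3%) and the lowest TMM factor in each group. The main fit has no pairing, and whether the number marks a shared step of processing is not stated and was not tested.

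A fit of only the groups compared gives no value for both blood groups together, and Scarb1, Cd36 and Olr1 have none under the filter of at least 10 counts. Under DESeq2 the adjusted p of Spp1 was not computed. With a common dispersion of 2.87, replicates differed far beyond counting error, and Cd36 and Olr1 cannot be given a direction here.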
